A study of Danio rerio with 18 samples.

Results

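The 6 phosphofructokinase genes of zebrafish were described across 18 samples of whole larvae at 120 hours post fertilization (hpf). They were taken by Ensembl identifier from the 32520 genes in the files: ENSDARG00000012801 and ENSDARG00000028000, which the gene name table calls PFKP (platelet type), ENSDARG00000014179 and ENSDARG00000060797, called PFKM (muscle type), and ENSDARG00000060504 and ENSDARG00000099755, called PFKL (liver type). Since both genes of a pair carry the same symbol, each is written here with the last digits of its identifier, as in PFKM-60797. All 6 passed the filter on low counts that left 23223 genes for testing.

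Phosphofructokinase adds a phosphate to fructose 6-phosphate and thereby makes fructose 1,6-bisphosphate, the committed step of glycolysis. The enzyme works as a tetramer, is held back by ATP and citrate, and is switched on by AMP and by fructose 2,6-bisphosphate. In mammals the muscle type is the form of skeletal muscle, the liver type prevails in liver, and the platelet type is found in platelets, brain and many other tissues.

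The study asked how the loss of Akr1a1a, an aldo-keto reductase that reduces aldehydes such as acrolein (ACR), alters larval gene expression, and whether acrolein itself does the same. Bulk RNA-Seq was performed on 6 samples of akr1a1a-/- larvae, 6 samples of akr1a1a+/+ larvae treated with ACR from 24 hpf to 120 hpf, and 6 samples of untreated akr1a1a+/+ larvae. All larvae were kept in medium with PTU, which suppresses pigment, and the akr1a1a-/- larvae come from 1 line made with CRISPR/Cas9. The study's methods name the Tg(fli1:EGFP) background, which marks blood vessel cells. A sample is a pool of larvae. The study's design gives separate clutches for akr1a1a-/- and akr1a1a+/+ larvae without naming the ACR-treated ones. The p-values set differences between groups against the spread between these samples. Apart from fits that include the replicate number, the tests treat the samples as independent, although same-numbered ACR-treated and untreated samples varied together.

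The libraries were even in depth, with 20247724 to 20463404 estimated counts in akr1a1a-/- larvae, 20001894 to 20362335 in ACR-treated larvae and 19878464 to 20174607 in untreated larvae. Transcript of the mutated gene, akr1a1a (ENSDARG00000035257), averaged 0.442 ± 0.152 CPM (counts-per-million of the library) in akr1a1a-/- larvae, 3.35 ± 0.332 CPM in ACR-treated larvae and 3.02 ± 0.399 CPM in untreated larvae (SD, n = 6 each). The run names, read as giving the sequencing lane, place all akr1a1a-/- libraries on lane 3 and all untreated libraries on lane 2, with ACR replicates 1 to 3 on lane 2 and 4 to 6 on lane 3. The genotype and the lane therefore cannot be told apart in the comparison of akr1a1a-/- with untreated larvae. For the phosphofructokinase genes that passed the test in it, values within lane 3 are given beside the pooled ones.

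Both muscle type genes were higher in akr1a1a-/- larvae than in untreated larvae, by 1.52-fold (PFKM-60797) and 1.43-fold (PFKM-14179), and were the phosphofructokinase genes that differed most. The major platelet type gene was 1.12-fold higher, 1 liver type gene was lower at 0.888 of the untreated level, and the other 2 genes did not pass the test. None of the 6 passed the same test between ACR-treated and untreated larvae. CPM values are scaled by TMM factors, which even out differences in library composition. Fold changes are those of a quasi-likelihood fit in edgeR, and p-values were adjusted by the Benjamini-Hochberg method over all 23223 genes and called under 0.05.

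**Figure D1:**
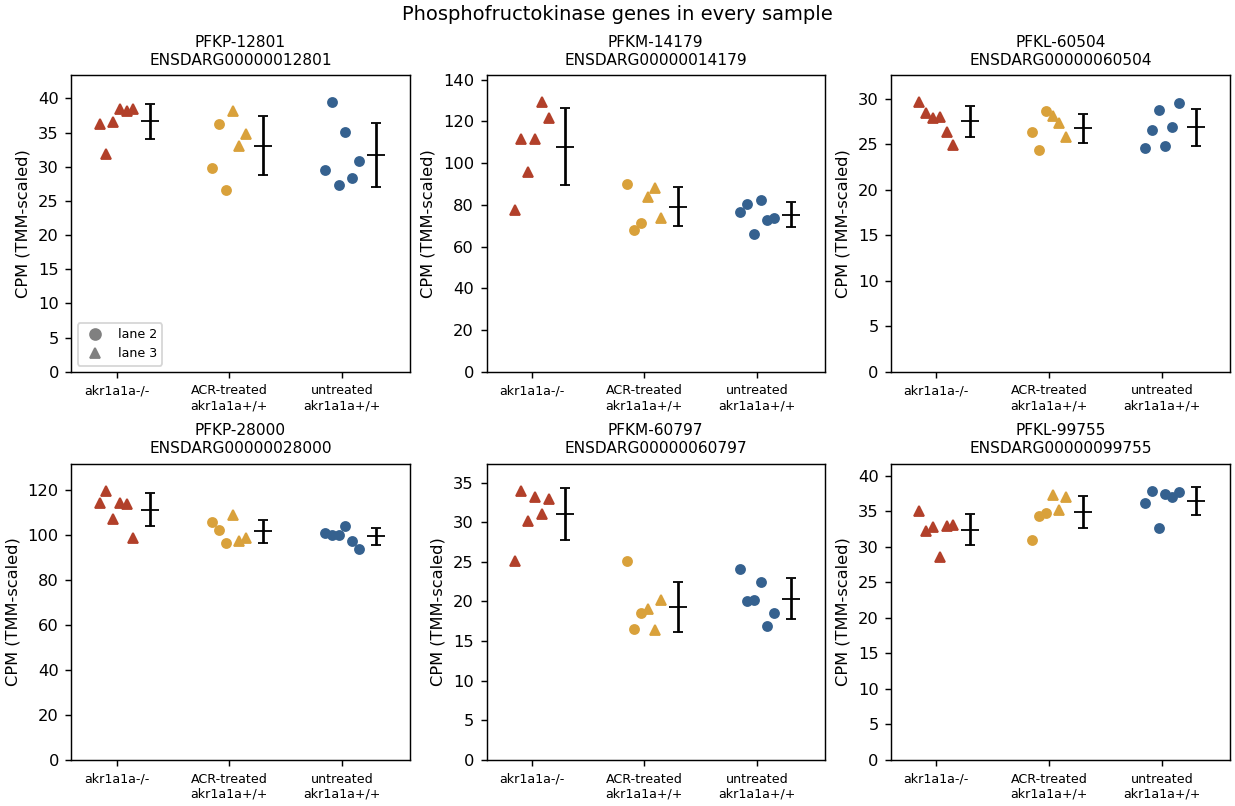
TMM-scaled CPM of each phosphofructokinase gene in the 18 samples, in 1 panel per gene with akr1a1a-/-, ACR-treated and untreated larvae from left to right. Each point is 1 sample in order of its replicate number (circle: lane 2, triangle: lane 3) and the bar is the mean ± SD of 6; the akr1a1a-/- points of PFKM-60797 all lie above the untreated points, and for the other 5 genes the ranges of these groups overlap.

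Of the muscle type genes, PFKM-60797 had a lowest value of 25.1, a median of 32.0 and a highest value of 34.0 CPM in akr1a1a-/- larvae. It had 16.4, 18.8 and 25.1 CPM (lowest, median and highest) in ACR-treated larvae and 16.9, 20.1 and 24.1 CPM in untreated larvae. All 6 akr1a1a-/- samples lay above all 6 untreated samples, and all but replicate 1 lay above every ACR-treated sample. Among all genes tested, 7.45% did not overlap between akr1a1a-/- and untreated larvae, 3.8% with akr1a1a-/- higher. The means were 31.0 ± 3.27 CPM in akr1a1a-/- larvae and 20.4 ± 2.61 CPM in untreated larvae (SD, n = 6 each), a log2 fold change of 0.61 ± 0.10 (standard error) with a 95% interval of 0.39 to 0.83 and an adjusted p of 0.000395 by edgeR's test. An exact two-sided permutation test of the same difference in CPM gave p = 0.00216, the smallest that 6 against 6 samples can give. On the TPM scale (transcripts-per-million, which divides by length), the ranges met: the lowest akr1a1a-/- sample had 11.4 TPM and the highest untreated sample had 11.6 TPM.

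PFKM-14179 was the more abundant muscle type gene. It had 77.7, 111.6 and 129.1 CPM (lowest, median and highest) in akr1a1a-/- larvae, 67.8, 78.8 and 89.9 CPM in ACR-treated larvae and 66.2, 75.1 and 82.5 CPM in untreated larvae. Of the akr1a1a-/- samples, 5 lay above every untreated sample, and replicate 1, at 77.7 CPM, lay within the untreated range. The means were 107.9 ± 18.5 CPM in akr1a1a-/- larvae and 75.3 ± 5.87 CPM in untreated larvae (SD, n = 6 each), a log2 fold change of 0.52 ± 0.10 with an adjusted p of 0.00151 by edgeR's test. The exact permutation test gave p = 0.00649. Both genes kept their calls on leaving out any of the 12 samples, at log2 fold changes of 0.46 to 0.59 for PFKM-14179 and 0.56 to 0.66 for PFKM-60797.

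Within lane 3, akr1a1a-/- larvae can be set against the 3 ACR-treated samples that ran on it. PFKM-60797 had 16.4, 19.0 and 20.2 CPM in those ACR-treated samples, all under the lowest akr1a1a-/- sample, and by edgeR's test akr1a1a-/- larvae were higher by 0.75 on the log2 scale (adjusted p = 0.00051), in a comparison with 4.01% of all genes called higher. PFKM-14179 had 73.8, 83.9 and 88.3 CPM there, which surround akr1a1a-/- replicate 1, and its difference of 0.40 on the log2 scale missed the threshold (adjusted p = 0.0525). With lane as a covariate in the edgeR model, PFKM-60797 kept its call between akr1a1a-/- and untreated larvae at 0.73 (adjusted p = 0.0241). PFKM-14179 lost its call in that fit, at 0.41 (adjusted p = 0.151). The lane term of this fit rests on the ACR-treated samples alone, the only group run on both lanes. Between the lanes these samples also differ in replicate number. Calls kept or lost with this covariate, here and below, therefore do not by themselves tell genotype from lane.

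**Figure D2:**
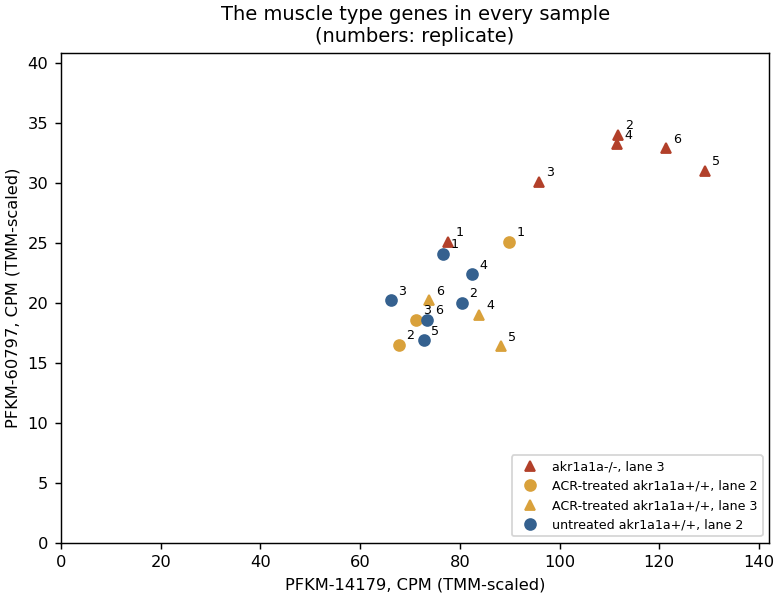
TMM-scaled CPM of PFKM-14179 (x axis) against PFKM-60797 (y axis) in the 18 samples, numbered by replicate, with colours for the groups and circles and triangles for lanes 2 and 3. Apart from replicate 1 at 77.7 and 25.1 CPM, the akr1a1a-/- samples lie above and to the right of the ACR-treated and untreated samples.

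The 2 muscle type genes varied together across samples. Pearson's r between their log2 CPM was 0.83 over the 18 samples and 0.53 after the group means were removed, as a description of samples that share groups, lanes and replicate numbers. Replicate 1 was the lowest akr1a1a-/- sample of both genes and the highest ACR-treated sample of both. In the untreated larvae, replicate 1 was highest for PFKM-60797 and in the middle of the range, at 76.7 CPM, for PFKM-14179.

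The platelet type genes differed less. PFKP-28000 had 98.6, 114.2 and 119.9 CPM (lowest, median and highest) in akr1a1a-/- larvae, 96.7, 100.5 and 109.1 CPM in ACR-treated larvae and 93.7, 100.01 and 104.3 CPM in untreated larvae. Of the akr1a1a-/- samples, 5 exceeded all untreated samples, and replicate 6, the lowest, lay within their range. The log2 fold change between akr1a1a-/- and untreated larvae was 0.16 ± 0.05 with an adjusted p of 0.0228 by edgeR's test and an exact permutation p of 0.0108. The call was lost without akr1a1a-/- replicate 2 (0.14, adjusted p = 0.0559), with lane as a covariate (adjusted p = 0.234) and on TPM in limma (0.10, adjusted p = 0.204). Within lane 3, akr1a1a-/- over ACR-treated larvae had 0.13 for PFKP-28000 and did not pass edgeR's test (adjusted p = 0.194).

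PFKP-12801, the minor platelet type gene, had 31.9, 37.4 and 38.5 CPM (lowest, median and highest) in akr1a1a-/- larvae, 26.6, 33.9 and 38.1 CPM in ACR-treated larvae and 27.3, 30.2 and 39.4 CPM in untreated larvae. The highest value of the gene was in an untreated sample, replicate 2, and the groups overlapped. The log2 fold change of akr1a1a-/- over untreated larvae, 0.21 ± 0.09, did not pass edgeR's test (adjusted p = 0.134), and without untreated replicate 2 it was 0.28 and passed (adjusted p = 0.0348). It was 0.02 with lane as a covariate (adjusted p = 0.96) and 0.07 on log2(TPM + 1) in limma (adjusted p = 0.698). Replicate numbers 2 and 4 were the 2 highest of both the ACR-treated larvae, at 36.3 and 38.1 CPM, and the untreated larvae, at 39.4 and 35.1 CPM.

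Of the liver type genes, PFKL-99755 had 28.5, 32.8 and 35.0 CPM (lowest, median and highest) in akr1a1a-/- larvae, 31.0, 34.9 and 37.3 CPM in ACR-treated larvae and 32.6, 37.2 and 37.9 CPM in untreated larvae. The akr1a1a-/- samples were the lower ones, and the overlap with untreated larvae came from untreated replicate 3, which stood below the other 5. The means were 32.4 ± 2.14 CPM in akr1a1a-/- larvae and 36.5 ± 1.98 CPM in untreated larvae (SD, n = 6 each), a log2 fold change of -0.17 ± 0.06 with an adjusted p of 0.0393 by edgeR's test and an exact permutation p of 0.0108. This call stood near the threshold: it held without akr1a1a-/- replicate 1 or without untreated replicate 3 (lowest adjusted p 0.017) and was lost without any other of the 12 samples (highest adjusted p 0.0949, without akr1a1a-/- replicate 4). Within lane 3, the ACR-treated samples had 35.1 to 37.3 CPM, above every akr1a1a-/- sample. The difference of akr1a1a-/- over these samples, -0.17 on the log2 scale, did not pass edgeR's test (adjusted p = 0.11).

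PFKL-60504 had 24.9, 27.9 and 29.6 CPM in akr1a1a-/- larvae, 24.4, 26.8 and 28.7 CPM in ACR-treated larvae and 24.6, 26.7 and 29.5 CPM in untreated larvae. It was the most even of the 6 genes between the groups, whose ranges nearly coincided. The log2 fold change of akr1a1a-/- over untreated larvae was 0.03 with a 95% interval of -0.09 to 0.16 (adjusted p = 0.734 by edgeR's test).

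In all, 3 of the 6 phosphofructokinase genes were higher and 1 was lower in akr1a1a-/- than in untreated larvae, in a comparison in which 16.2% of all genes tested were called, 8.19% higher and 7.96% lower. The median log2 fold change of the 6 genes was 0.19, beside -0.0007 over all genes tested, and it was 0.09 with lane as a covariate and 0.08 on log2(TPM + 1). With lane as a covariate, 6.45% of all genes were called, 3.26% higher and 3.19% lower. Of the phosphofructokinase genes, PFKM-60797 kept its call as higher in that edgeR fit. PFKL-99755 kept its call as lower at -0.3, only just under the threshold (adjusted p = 0.0499 by edgeR's test).

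**Figure D3:**
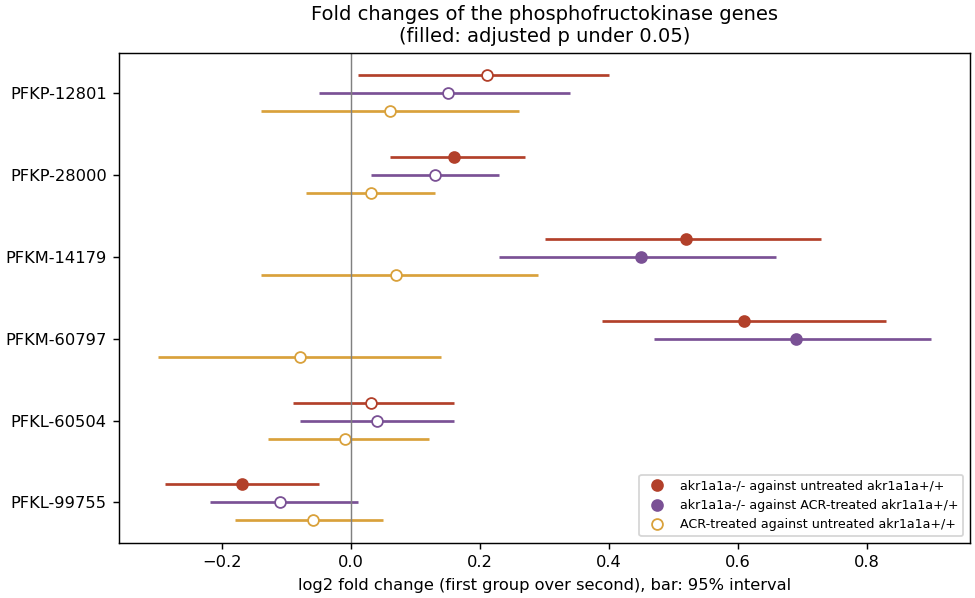
Log2 fold change of each phosphofructokinase gene in the 3 comparisons (point; filled where the adjusted p was under 0.05) with its 95% interval (bar), from edgeR's quasi-likelihood fit. The muscle type genes lie at 0.52 and 0.61 for akr1a1a-/- over untreated larvae and at 0.45 and 0.69 over ACR-treated larvae, while every interval for ACR-treated over untreated larvae spans 0.

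Between ACR-treated and untreated larvae, edgeR's test called 0 of the 6 genes, and 0 at an unadjusted p under 0.05. DESeq2's Wald test and limma on log2(TPM + 1) also called 0 of 6, beside 0.096% and 0.00861% of all genes. In this comparison 6 of 23223 genes were called, 0.0258%, with 1259 at an unadjusted p under 0.05, 5.42%. With the replicate number as a block over all 18 samples, which places the akr1a1a-/- samples in blocks too, 32 genes were called, 0.138%. The numbers pair only the ACR-treated and untreated samples. A block on these groups alone, added after seeing the data, called 137 genes, 99 higher and 38 lower. None of the 6 was called in either fit. In the fit without a block, PFKM-14179 had a log2 fold change of 0.07 with a 95% interval of -0.14 to 0.29. PFKM-60797 had -0.08 with an interval of -0.30 to 0.14. The intervals of the other 4 genes lay between -0.18 and 0.26. Within lane 2, where 3 ACR-treated samples can be set against untreated larvae, the muscle type genes had log2 fold changes of 0.02 (PFKM-14179) and -0.02 (PFKM-60797).

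Set directly against ACR-treated larvae, akr1a1a-/- larvae had 2 of the 6 genes higher and none lower, where 13.8% of all genes tested were called, 6.46% higher and 7.29% lower. These were the muscle type genes, with log2 fold changes of 0.69 ± 0.10 for PFKM-60797 (adjusted p = 0.000125) and 0.45 ± 0.10 for PFKM-14179 (adjusted p = 0.00487) by edgeR's test. Both calls held on leaving out any of the 12 samples. PFKP-28000 had 0.13 (adjusted p = 0.0717), and passed without akr1a1a-/- replicate 6 (adjusted p = 0.0166) or without ACR replicate 4 (adjusted p = 0.0445). This comparison shares its akr1a1a-/- samples with the one against untreated larvae, so the values are not independent.

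Levels of different genes were compared per length, in TPM. In akr1a1a-/- larvae the order of mean TPM was PFKM-14179 at 58.1, PFKP-28000 at 40.0, PFKL-60504 at 19.5, PFKL-99755 at 19.1, PFKM-60797 at 14.2 and PFKP-12801 at 13.1. In ACR-treated larvae it was PFKM-14179 at 45.7, PFKP-28000 at 38.3, PFKL-99755 at 21.7, PFKL-60504 at 18.9, PFKP-12801 at 12.9 and PFKM-60797 at 9.03. In untreated larvae it was PFKM-14179 at 43.5, PFKP-28000 at 37.2, PFKL-99755 at 22.4, PFKL-60504 at 19.5, PFKP-12801 at 12.6 and PFKM-60797 at 9.5. The major muscle and platelet type genes led every group, and PFKM-60797 was last in ACR-treated and untreated larvae but not in akr1a1a-/- larvae.

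Several neighbours in these orders were not separated by their spread. The ranges of PFKM-14179 and PFKP-28000 overlapped in each group, although PFKM-14179 was the higher in 6 of 6 samples of each. The liver type genes overlapped in each group, as did PFKP-12801 and PFKM-60797. The step down to the liver type genes from PFKP-28000 had no overlap in any group.

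**Figure D4:**
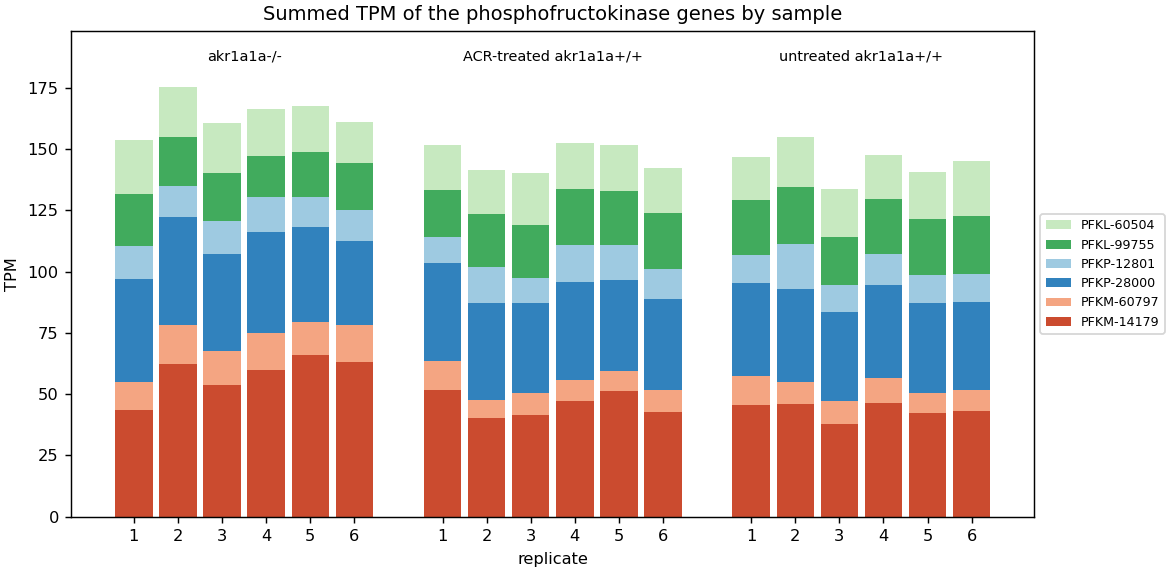
TPM of the phosphofructokinase genes stacked by sample, with akr1a1a-/-, ACR-treated and untreated larvae from left to right and replicates 1 to 6 along the x axis. The stack is tallest in akr1a1a-/- larvae, at 153.3 to 175.2 TPM, mainly through the PFKM-14179 segment at its base.

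The summed TPM of the 6 genes was 153.3, 163.4 and 175.2 (lowest, median and highest) in akr1a1a-/- larvae, 140.4, 146.9 and 152.1 in ACR-treated larvae and 133.6, 145.9 and 154.7 in untreated larvae. The akr1a1a-/- samples lay above the other groups except replicate 1, which fell below the highest untreated sample. The muscle type pair made up 44.0% ± 4.55 of the sum in akr1a1a-/- larvae, 37.3% ± 2.88 in ACR-treated larvae and 36.6% ± 1.6 in untreated larvae (SD, n = 6 each). The liver type pair made up 23.6% ± 2.43 in akr1a1a-/- larvae, 27.7% ± 1.96 in ACR-treated larvae and 29.0% ± 1.62 in untreated larvae. The platelet type share was closer between groups, at 32.4% ± 2.4 in akr1a1a-/- larvae, 35.0% ± 1.91 in ACR-treated larvae and 34.4% ± 1.23 in untreated larvae. These sums and shares are descriptions without a test.

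Within the pairs, PFKM-14179 stood at 4.11 ± 0.427 times the TPM of PFKM-60797 in akr1a1a-/- larvae, 5.15 ± 0.799 times in ACR-treated larvae and 4.63 ± 0.551 times in untreated larvae. PFKP-28000 stood at 3.05 ± 0.269 times PFKP-12801 in akr1a1a-/- larvae, 3.03 ± 0.482 times in ACR-treated larvae and 3.03 ± 0.466 times in untreated larvae. PFKL-99755 stood at 0.986 ± 0.0877 times PFKL-60504 in akr1a1a-/- larvae, 1.15 ± 0.0917 times in ACR-treated larvae and 1.15 ± 0.107 times in untreated larvae. Genes of a pair can share reads, and the authors' quantification may have divided such reads between them, so these ratios and the split within a pair are uncertain.

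The count of a gene divided by its TPM follows the length of the transcripts that its reads were assigned to. As a percentage of its mean in untreated larvae, this length stayed between 99.73% and 100.8% for PFKP-28000 and did not vary visibly for PFKL-99755. It varied most for PFKP-12801, between 87.8% in untreated replicate 2 and 114.9% in an akr1a1a-/- sample. The same gene averaged 36.6 CPM in akr1a1a-/- larvae and 31.7 CPM in untreated larvae, but 13.1 ± 0.783 TPM in akr1a1a-/- larvae and 12.6 ± 2.64 TPM in untreated larvae (SD, n = 6 each), so its levels were closer on the TPM scale than on the CPM scale.

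The enzymes that set the level of fructose 2,6-bisphosphate, the activator of phosphofructokinase, or that reverse its step were counted as regulators, 11 genes in all. Of these, 1 was higher and none was lower in akr1a1a-/- than in untreated larvae, a share near the 8.19% of all genes tested that were higher. It was tigara (ENSDARG00000051749), whose mammalian counterpart TIGAR breaks down fructose 2,6-bisphosphate. It had 5.68, 6.58 and 7.1 CPM (lowest, median and highest) in akr1a1a-/- larvae, 3.77, 4.59 and 5.87 CPM in ACR-treated larvae and 3.89, 4.11 and 4.41 CPM in untreated larvae. All akr1a1a-/- samples lay above all untreated samples, with a log2 fold change of 0.65 ± 0.09 and an adjusted p of 6.58e-05 by edgeR's test. With lane as a covariate the call held at 0.64 (adjusted p = 0.0264).

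For the paralog tigarb the difference was 0.03 on the log2 scale (adjusted p = 0.864). The bifunctional PFKFB enzymes, which make and remove fructose 2,6-bisphosphate, did not pass edgeR's test in akr1a1a-/- against untreated larvae. Their log2 fold changes were 0.03 for pfkfb1, -0.11 for pfkfb2a, 0.15 for PFKFB2, 0.09 for PFKFB3, -0.15 for pfkfb4a and 0.12 for PFKFB4, with adjusted p-values between 0.0933 and 0.885. On TPM, limma called pfkfb4a lower. Fructose bisphosphatases catalyse the reverse step in gluconeogenesis, and had 0.01 for fbp1a, 0.11 for fbp1b and 0.47 ± 0.19 for FBP2, the muscle form in mammals (adjusted p = 0.0908). FBP2 averaged 39.7 ± 7.84 CPM in akr1a1a-/- larvae and 28.6 ± 5.35 CPM in untreated larvae (SD, n = 6 each), with overlapping groups, and was called higher in the edgeR fit on only these groups.

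Upstream of phosphofructokinase, hexokinases trap glucose as glucose 6-phosphate and glucose phosphate isomerase converts it to fructose 6-phosphate. Of 6 such genes, edgeR's test called 0 between akr1a1a-/- and untreated larvae, with 2 at an unadjusted p under 0.05. DESeq2's Wald test and limma on TPM called 0 as well.

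Downstream, from aldolase to lactate dehydrogenase, 5 of 23 genes were higher in akr1a1a-/- than in untreated larvae and none was lower, beside 8.19% higher over all genes tested. The median log2 fold change of the 23 was 0.05. LDHA (ENSDARG00000101251), which turns pyruvate into lactate, had 332.7 to 413.9 CPM in akr1a1a-/- larvae and 233.1 to 274.0 CPM in untreated larvae, without overlap, at a log2 fold change of 0.60 ± 0.07 (adjusted p = 1.89e-05 by edgeR's test). PGAM2 (ENSDARG00000057571), the muscle phosphoglycerate mutase in mammals, had 0.47 ± 0.08 (adjusted p = 0.000618) and did not overlap either.

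The other 3 were smaller. The aldolase A genes, which split fructose 1,6-bisphosphate, had 0.40 ± 0.10 for ENSDARG00000011665 (adjusted p = 0.00875) and 0.27 ± 0.08 for ENSDARG00000034470 (adjusted p = 0.0257), and the triose phosphate isomerase gene TPI1 ENSDARG00000040988 had 0.24 ± 0.06 (adjusted p = 0.0113), all by edgeR's test. Replicate 1 was the lowest akr1a1a-/- sample for LDHA and TPI1 and next to the lowest for PGAM2 and both ALDOA genes, as it was the lowest for both PFKM genes. With lane as a covariate, LDHA was the 1 of these 5 that kept its call (0.63, adjusted p = 0.00947). PGAM2 was at 0.49 (adjusted p = 0.0534), TPI1 at 0.20 (adjusted p = 0.244), and the ALDOA genes at 0.27 for ENSDARG00000011665 (adjusted p = 0.336) and 0.04 for ENSDARG00000034470 (adjusted p = 0.874) in that edgeR fit. PKLR and GAPDH were among the genes it called lower.

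**Figure D5:**
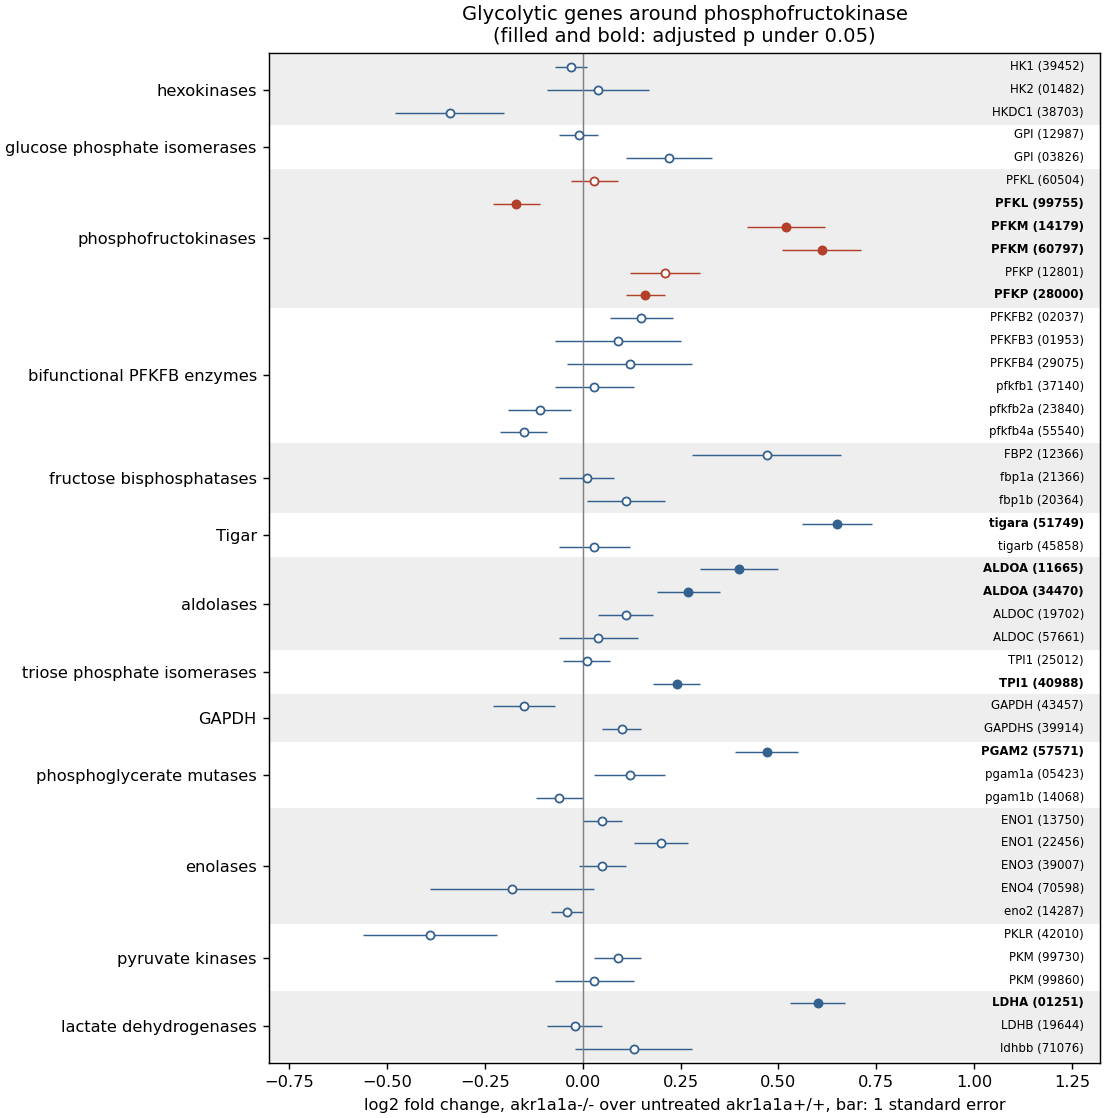
Log2 fold change of akr1a1a-/- over untreated larvae for glycolytic genes and the regulators of the phosphofructokinase step, grouped by enzyme from hexokinase at the top to lactate dehydrogenase at the bottom (point; filled and with a bold name where the adjusted p was under 0.05) with 1 standard error on each side (bar). Phosphofructokinases are in red; LDHA at 0.60, tigara at 0.65 and the PFKM genes at 0.52 and 0.61 lie farthest to the right.

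Between ACR-treated and untreated larvae, edgeR's test called 0 of the 11 regulators, 0 of the 6 upstream genes and 0 of the 23 downstream genes, with 0, 2 and 0 of them at an unadjusted p under 0.05. DESeq2's Wald test and limma on TPM called 0 in each list. Against ACR-treated larvae, akr1a1a-/- larvae had tigara higher among the regulators (0.48 ± 0.09, adjusted p = 0.0013 by edgeR's test) and the same 5 downstream genes higher, beside 6.46% higher over all genes tested. Within lane 3, and with lane as a covariate, 3 of these 5 were called (LDHA, PGAM2 and the ALDOA gene ENSDARG00000034470), and limma on TPM called all but TPI1.

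Pearson's r of log2 CPM over the 18 samples was used, as a description, to compare each phosphofructokinase gene with genes outside the family. These came from the 19367 genes tested that had a mean log2 CPM of at least 1. The closest to PFKM-60797 were LDHA at 0.93, synpo2la at 0.92 and PGAM2 at 0.92. The closest to PFKM-14179 were TMEM41A at 0.91, the ALDOA gene ENSDARG00000011665 at 0.90 and NDUFS8 at 0.90. Both lists thus held glycolytic genes named above. With group means removed, r to PFKM-60797 was 0.80 for LDHA, 0.66 for synpo2la and 0.68 for PGAM2. To PFKM-14179 it was 0.80 for TMEM41A, 0.78 for ALDOA and 0.74 for NDUFS8, so genes outside glycolysis had similar values.

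PFKP-28000 was closest to cnfn at 0.87, PALMD at 0.85 and NOA1 at 0.85, and PFKP-12801 to NUDCD3 at 0.86, BCAT2 at 0.85 and ENSDARG00000052288 at 0.84. PFKL-99755 was closest to fam217ba at 0.91, oxr1a at 0.90 and myo9ab at 0.90, and PFKL-60504 to dchs2 at 0.80, PLPPR4 at 0.77 and isl1b at 0.76. None of these was a glycolytic gene of the lists. PFKL-99755 ran against the muscle type genes, with r of -0.56 to PFKM-14179 and -0.66 to PFKM-60797, and these became -0.15 and -0.45 with group means removed.

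Whole larvae hold many tissues, and in bulk RNA fewer cells of a type and less RNA per cell cannot be told apart. Of 13 fast skeletal muscle markers, 3 were higher in akr1a1a-/- than in untreated larvae and none was lower, beside 8.19% higher and 7.96% lower over all genes tested, with a median log2 fold change of 0.09. These were ckmb at 0.27, pvalb2 at 0.28 and the ACTA1 gene ENSDARG00000055618 at 0.86. The other ACTA1 gene, ENSDARG00000036371, was at 0.02. Of the 13, 11 were above 0, and myhz1.2 and myhz2 were at -0.21 and -0.09. With lane as a covariate ENSDARG00000055618 kept its call (0.95, adjusted p = 0.00606 by edgeR's test), while ckmb was at 0.18 (adjusted p = 0.265) and pvalb2 at 0.19 (adjusted p = 0.364). Against ACR-treated larvae, edgeR's test called 3 of the 13 higher and 1 lower, beside 6.46% and 7.29% of all genes tested. The lower one was myhz1.2 at -0.27 (adjusted p = 0.0306 by edgeR's test). The summed TPM of the 13 was 83457.6 to 95662.5 in akr1a1a-/- larvae, 77203.9 to 86179.8 in ACR-treated larvae and 76730.2 to 91788.3 in untreated larvae, so the groups overlapped. Their part in the levels of the muscle type genes was not tested.

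Of 6 erythrocyte marker genes tested, 3 were higher in akr1a1a-/- larvae and none was lower, beside the same 8.19% and 7.96%, with a median log2 fold change of 0.99. Under the lane covariate none was called, at a median of 1.03, and limma called 2 on log2(TPM + 1) and 1 on log2(TPM + 0.1). The summed TPM of the list's 7 genes, of which 1 did not pass the filter, was 1015.9 to 1536.6 in akr1a1a-/- larvae, 250.6 to 1011.4 in ACR-treated larvae and 248.4 to 1122.7 in untreated larvae. The 3 called were alas2 at a log2 fold change of 1.76, the SLC4A1 gene ENSDARG00000012881 at 1.06 and epb41b at 1.16. Of the other genes tested, hbae3 was at 0.93, the SLC4A1 gene ENSDARG00000024560 at 0.0 and hbae1.1 at -0.51. For the 3 called, replicate 1 was the lowest akr1a1a-/- sample, as it was for both PFKM genes. It had 22.6 CPM of alas2 beside a group median of 60.9 CPM. Of the other marker lists, 2 of 9 liver genes (median -0.13, with 3 of 9 above 0) and 2 of 12 photoreceptor genes (median 0.11) were higher and none was lower, beside the same shares over all genes. None of these was called with lane as a covariate, DESeq2's Wald test and limma called the liver gene CP lower, and limma on TPM called the photoreceptor gene PDE6C lower. In the same comparison edgeR's test called 0 of 9 heart genes and 0 of 10 neuronal genes, with 1 of each list at an unadjusted p under 0.05 and 0 called by DESeq2's Wald test or limma on TPM. The lane covariate added 1 call among the neuronal genes, SNAP25 ENSDARG00000020609, which was lower. No marker was at 0 in all samples of a group. What these cell types contributed to the phosphofructokinase levels was not tested.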

How the data were processed

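Whole zebrafish larvae were sequenced on a BGISEQ-500 after TruSeq library preparation. The submitters' processing notes name Trim Galore 0.6.4, kallisto 0.4.6 and the build GRCz11, without settings or a statement on strand. The authors deposited estimated counts and TPM per gene for each sample. Paralogous genes can share reads, which such estimates divide between them.

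Estimated counts were rounded to whole numbers. The filterByExpr function of edgeR 4.0.16 set aside genes with few counts, the libraries were scaled by TMM, and a quasi-likelihood model of the 3 groups was fitted on 18 samples (15 residual degrees of freedom, R 4.3.3). Fold changes are edgeR's, with a prior count that pulls low genes towards 0 slightly, and their standard errors are approximate, taken from the F statistic. Alternatives used DESeq2 1.42.0, limma 3.58.1 on log2(TPM + 1) and log2(TPM + 0.1), other filters, a replicate block, lane as a covariate, ACR samples of 1 lane, and each sample left out in turn. Exact two-sided permutation tests used single genes.

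The sample labels gave the groups and replicate numbers, and the run names gave the lanes. The numbers pair ACR-treated with untreated samples, as the deviations of same-numbered samples correlated at 0.249 to 0.603 in all 6 pairs; with akr1a1a-/- samples the mean correlation was 0.0761 for untreated and 0.0446 for ACR-treated samples, and the numbers were not taken to pair them. No 2 samples held identical values.

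Gene symbols came from a name table, which matched 29201 of the 32520 identifiers. The text names the 6 phosphofructokinase genes, akr1a1a, all regulators detected, called genes of the pathway lists (at most 5 for each list and comparison, by adjusted p), and the 3 genes most like each member among those with a mean log2 CPM of at least 1; the markers, PKLR and GAPDH were named after their values were seen. Some genes of the lists are counted but not reported here by name. The genes and lists were chosen with earlier results of these data known. Listed symbols without a match (such as pfkfb4l and pgk1) were not analysed here, nor were sequences.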

Additional observations from a re-analysis of the deposited data

Results flagged for a closer look

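In 36 checks of 6 samples each (CPM and TPM of 6 genes in 3 groups), the highest or lowest sample stood apart from its nearest neighbour by more than Dixon's 95% limit, a share of the group's range, in 7. Chance alone marks about 1 group in 20, and the CPM and TPM of a gene are not independent. PFKP-12801 had 31.9 CPM in akr1a1a-/- replicate 2, the next value being 36.3 CPM, and 17.9 TPM in untreated replicate 2, the next being 12.5 TPM. PFKM-60797 had 12.1 TPM in ACR replicate 1, above 9.08 TPM. PFKL-60504 had 21.2 TPM in ACR replicate 3, above 18.8 TPM. PFKL-99755 was low in ACR replicate 1 at 19.2 TPM, below 21.6 TPM, and in untreated replicate 3 at 32.6 CPM, below 36.2 CPM, and 19.5 TPM, below 22.4 TPM. Akr1a1a-/- replicate 1, the lowest of its group for both PFKM genes, did not stand apart by this rule.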

How the results depend on the processing

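PFKM-60797 stayed higher in akr1a1a-/- larvae and past the threshold in all 10 alternatives against untreated larvae (0.53 to 0.73) and all 12 against ACR-treated larvae (0.60 to 0.75). PFKM-14179 did so in 9 of 10 and 10 of 12; it lost the call with lane as a covariate (0.41 against untreated and 0.40 against ACR-treated larvae) and within lane 3 (0.40). PFKP-28000 lost its call against untreated larvae with the lane covariate (0.16) and on TPM with either pseudocount (0.10), and gained one against ACR-treated larvae with the replicate block or DESeq2 (0.13 in both). PFKL-99755 lost its call in a block fit on only the groups compared, added after seeing the data (-0.17), and gained one against ACR-treated larvae on TPM (-0.17 with pseudocount 1 and -0.18 with 0.1). The cause was not tested. PFKL-60504 turned to -0.0023 and -0.0025 on TPM against untreated larvae. Without a call in either direction, PFKP-12801 turned to -0.04 between ACR-treated and untreated larvae with the lane covariate and within lane 2, and in the ACR samples of lane 3 PFKL-60504 turned to 0.01 and PFKL-99755 to 0.00059.

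On leaving out 1 sample, log2 fold changes against untreated larvae were 0.14 to 0.20 for PFKP-28000, -0.20 to -0.14 for PFKL-99755 and 0.17 to 0.28 for PFKP-12801 in akr1a1a-/- larvae, and -0.03 to 0.03 for PFKL-60504 in ACR-treated larvae; PFKP-28000 was at 0.11 to 0.16 in akr1a1a-/- over ACR-treated larvae. The counts of called genes were 3097 to 3612 for akr1a1a-/- against untreated larvae, 2728 to 3231 against ACR-treated larvae and 3 to 10 for ACR-treated against untreated larvae (3 without untreated replicate 4, 5 or 6 or ACR replicate 2 or 4, and 10 without untreated replicate 2).

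With the lane covariate 1498 genes were called between akr1a1a-/- and untreated larvae and 1980 between akr1a1a-/- and ACR-treated larvae, or 2050 within lane 3. Between ACR-treated and untreated larvae 32 were called with the replicate block, 20 with the lane covariate, 1 with only these groups, 21 with DESeq2, 2 on TPM with either pseudocount, 13 with ACR samples of lane 2, 0 with those of lane 3 and 137 with the block on only these groups. On TPM the calls between akr1a1a-/- and untreated larvae split into 1210 higher and 2484 lower, against 1903 and 1849 in the TMM-scaled fit, and the median over all genes was -0.049. Against ACR-treated larvae the split was 881 and 2594, against 1500 and 1694. The replicate block changed no call of a phosphofructokinase gene other than those named, and called the muscle marker myhz1.2 lower in akr1a1a-/- than in untreated larvae. By estimated counts in place of TPM, the muscle type pair made up 39.9% of the family in akr1a1a-/-, 33.3% in ACR-treated and 32.9% in untreated larvae. Counts of 338 to 2511 per gene and sample limit the precision of each value.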
